A study of Mus musculus with 18 samples.

Results

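The 8 arrays described here are those of 4 iPSC clones from the KE + EpEX group and 4 iPSC clones from the OSKM group, out of 18 arrays in the series. They were chosen by their sample labels alone, with 1 array per clone. Both groups started from mouse embryonic fibroblasts (MEFs) from E13.5 embryos of a strain that carries the doxycycline-dependent activator rtTA*M2 at the ROSA locus and GFP at the Oct4 locus (B6.129S4-POU5f1tm2Jae/J). PiggyBac plasmids (2.5 µg) were brought into these MEFs by nucleofection and induced with doxycycline at 1.5 µg/ml for 21 days, on feeder cells (wild type C57BL/6J MEFs treated with mitomycin C) and in medium with LIF. The KE + EpEX cells received PB-TET plasmids for Klf4 and EpCAM, and EpEX, the extracellular region of EpCAM, was added to their medium as a protein. The OSKM cells received 1 PB-TET plasmid for Oct4, Sox2, Klf4 and c-Myc and no EpEX. Hence the groups differ in the transfected genes and in the protein added, and the share of each in a difference cannot be told apart. The labels call the 4 clones of a group biological replicates, but do not say whether they came from separate transfections. A p-value therefore measures only the spread between these clones.

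Fibroblasts that become iPSCs shut down genes of the mesenchyme, such as collagens and other matrix genes, and take up epithelial junctions in a mesenchymal-to-epithelial transition. They then switch on the endogenous pluripotency network, in which Oct4, Sox2 and Nanog act with many co-regulators. EpCAM is a homophilic adhesion protein of epithelia and pluripotent cells. Its extracellular region EpEX is shed and its intracellular region can enter the nucleus. The comparison asks how far clones made with Klf4, EpCAM and EpEX differ from clones made with the 4 classical factors, and how much clones of the same kind differ among themselves.

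Each of the 45037 probe sets analysed had been centred by the authors, so that a value of 0 is the median of that probe set in all 18 arrays and a value of 1 is 1 log2 unit above it. Detection of a transcript cannot be read from such values. The 8 array medians lay between −0.0085 and 0.0097. A gene symbol was given for 931 probe sets (2.07%), which came from the authors' lists of transcripts 10-fold or more from the MEF mean in every array of other cells (469 higher and 462 lower than MEFs), and 687 genes could be named from them. Every gene that could be named had therefore been listed for its difference from MEFs. Many of those named below were then chosen for their difference, p or spread in these same 8 arrays.

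As a check of the cell type, the 6 pluripotency markers measured had a median of 0.0957, 0.0605, −0.0333 and 0.124 in KE + EpEX clones 1 to 4. It was between −0.0489 and 0.0853 in the OSKM clones, compared with −7.72 to −7.40 in the 3 MEF samples. In the 3 mouse embryonic stem cell (mESC) samples it was 0.0608 to 0.219. The median hides Pou5f1, with a mean of −0.10 in KE + EpEX, 0.13 in OSKM and 5.65 in mESCs. Fibroblast markers did not run as evenly between clones. The 9 measured markers had a median level of 4.27% of the MEF mean in KE + EpEX clone 1, 2.62% in clone 2, 1.41% in clone 3 and 1.10% in clone 4, and between 1.34% and 1.57% in the OSKM clones. All 9 were above every OSKM clone in clone 1, and 8 were in clone 2. In clones 3 and 4, 1 of the 9 was above and 4 and 6 were below all OSKM clones. The OE + EpEX clones of the series, made with Oct4 in place of Klf4, were uneven as well. Their median levels were 1.81%, 1.64%, 2.61% and 3.22% in clones 1 to 4, and all 9 markers were above every OSKM clone in OE + EpEX clone 4. An uneven level was therefore not particular to KE + EpEX. In bulk RNA, fewer cells of a type and less RNA per cell cannot be told apart. The feeder cells were themselves MEFs, and the part of these markers in the differences between the groups was not tested. The MEF mean is uneven as well, because MEF sample 1 had a median of 28.7% of it and samples 2 and 3 had 186% and 187%.

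Compared across all probe sets, 28 differed between KE + EpEX and OSKM iPSCs at an adjusted p under 0.05 (0.0622% of 45037), with 9 higher in KE + EpEX (0.02%) and 19 lower (0.0422%). The differences were modest, from 0.632 to 1.62 log2 units in size, and 13 of them reached 1 log2 unit (0.0289%). None of the 28 carried a gene symbol, and in each of them all 4 clones of 1 group lay above all 4 of the other. The probe set 1417392_a_at had values of −0.67, −1.03, −0.26 and −0.17 in the KE + EpEX clones and 1.24, 0.92, 1.16 and 1.03 in the OSKM clones. It fell by 1.62 (SE 0.178, limma adjusted p = 0.0321), the furthest of the 19. Next to it 1456711_at was 0.07, −0.40, 0.69 and −0.07 against 1.58, 1.61, 1.38 and 1.62, a difference of −1.47 (SE 0.196, adjusted p = 0.0437). In the other direction 1417928_at rose furthest, from −1.02, −0.79, −0.55 and −0.96 in the OSKM clones to 0.33, 0.82, 0.06 and 0.54 in the KE + EpEX clones, by 1.27 (SE 0.164, adjusted p = 0.0396). The probe set 1448842_at rose by 1.11 (SE 0.138, adjusted p = 0.037), with OSKM clones between −0.51 and −0.41 and KE + EpEX clones between 0.38 and 1.00. In each of these 4 probe sets the KE + EpEX clones were further apart than the OSKM clones, and 25 of the 28 had the larger SD in KE + EpEX.

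The other groups of the series were not used to choose the 28 probe sets. The mean of the OE + EpEX iPSCs, which were made with Oct4 and EpCAM in place of Klf4 and EpCAM, lay between the KE + EpEX and OSKM means in 23 of them. It was nearer to OSKM in 9 and nearer to KE + EpEX in the others. The mESC mean was nearer to OSKM in 19 of the 28, and all 3 mESC clones were nearer to OSKM in 14 and nearer to KE + EpEX in 6. These are counts for probe sets that share the same 8 arrays and were not tested. The 28 were chosen for a gap between KE + EpEX and OSKM, which makes another mean more likely to lie between them. The share over all probe sets was not counted, so no conclusion is drawn from these counts.

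How many probe sets passed depended on single clones. The count was 3 without KE + EpEX clone 1, and 0 without KE + EpEX clone 2 or without any 1 of OSKM clones 1 to 4. It was 2009 without KE + EpEX clone 3 and 544 without KE + EpEX clone 4. Without KE + EpEX clones 1 and 2, the clones with the higher fibroblast markers, 32 probe sets passed (6 higher, 26 lower), a setting that was chosen after seeing the data. With an unadjusted p under 0.05 there were 5468 probe sets (12.1%), 2531 higher (5.62%) and 2937 lower (6.52%). Among the 931 probe sets with a symbol, 92 were higher (9.88%) and 77 lower (8.27%) by this looser measure, and 0 passed the adjustment. The change of calls with single clones touched the named genes too. Of the 82 genes named, 32 passed without KE + EpEX clone 3, among them Dppa3, Cidea, Naa11 and Nanog, and 8 passed without KE + EpEX clone 4. Of the 931 probe sets with a symbol, 92 and 22 passed in these settings. Many of the 82 were chosen for their difference, p or spread in these arrays, which makes more calls among them likely. Over all probe sets, clone 3 was the KE + EpEX clone nearest to the OSKM mean, so calls gained without it are no added support. The lowest adjusted p of a gene with a name was 0.0558, for Dppa3. The median standard error of the 687 genes was 0.144 log2 units.

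The transfected factors were examined first. Pou5f1, which encodes Oct4 and was transfected only into the OSKM cells, was −0.26, −0.02, −0.15 and 0.02 in the KE + EpEX clones and 0.24, 0.23, 0.07 and −0.03 in the OSKM clones. The groups overlapped and differed by −0.23 (95% interval −0.45 to −0.01, adjusted p = 0.387), between a MEF mean of −3.68 and an mESC mean of 5.65. For Sox2, the partner of Oct4 on DNA, the 4 OSKM clones ranged from −0.07 to 0.13. KE + EpEX clones 1 to 3 lay among them, at −0.06, −0.02 and −0.06, and clone 4 was at 0.48. The difference was 0.05 (95% interval −0.23 to 0.34, adjusted p = 0.924). Epcam, transfected only into the KE + EpEX cells, was 0.10, 0.11, 0.28 and −0.36 against −0.15, −0.09, 0.09 and 0.11, a difference of 0.04 (95% interval −0.26 to 0.34, adjusted p = 0.945). Whether these probe sets read the transfected copies as well as the endogenous genes is not known from the files. Klf4 and Myc had no probe set with a symbol.

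**Figure D1:**
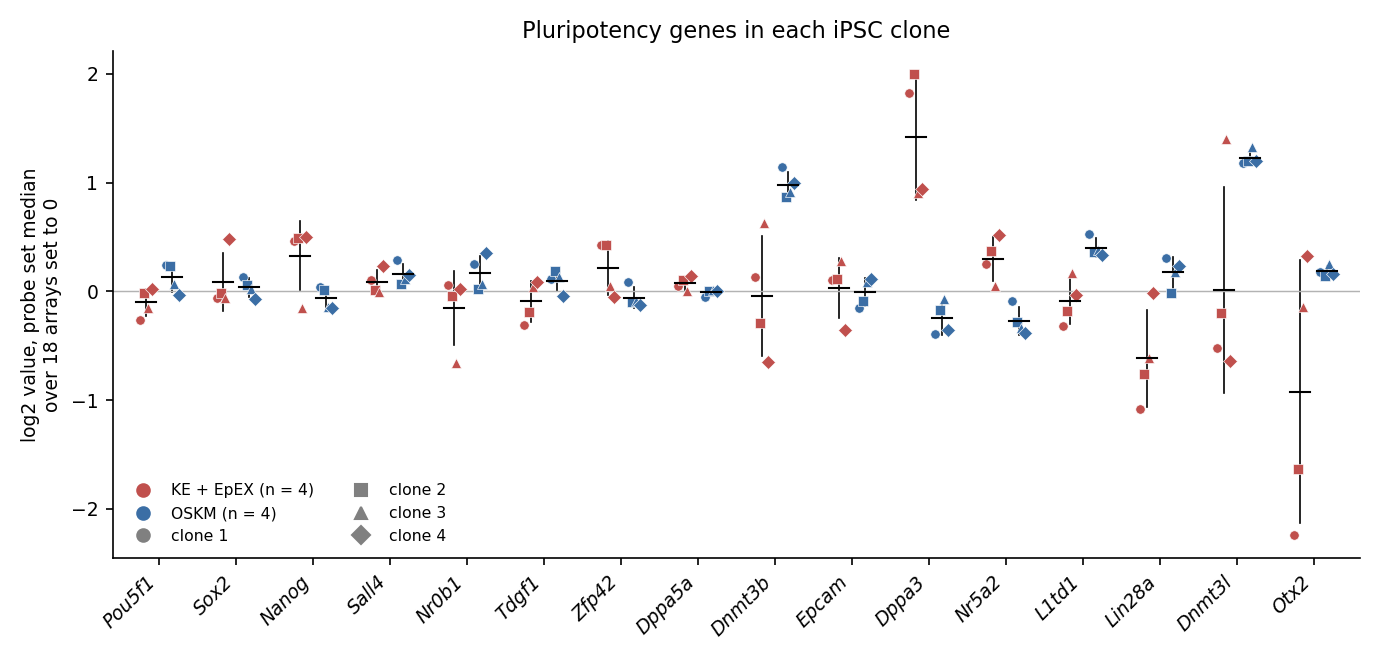
Log2 level of 16 pluripotency genes (vertical axis, relative to the median of the 18 arrays) in KE + EpEX and OSKM clones, with clones 1 to 4 as a circle, a square, a triangle and a diamond, the mean as a black bar and the SD as a line. OSKM clones lie close together for Dnmt3l (1.18 to 1.33), where KE + EpEX clones run from −0.64 to 1.40, and all 4 KE + EpEX clones lie above all OSKM clones for Dppa3.

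Of the 13 pluripotency genes that the study followed, 9 were measured, and 0 passed the adjusted test. At an unadjusted p under 0.05, 1 was higher and 2 were lower in KE + EpEX, compared with 5.62% and 6.52% of all probe sets. The median difference of the 9 was −0.071, compared with −0.00215 over all probe sets. The 469 probe sets with a symbol listed above MEFs had a median of −0.037, with 46 higher and 70 lower at an unadjusted p under 0.05. Nanog, a core regulator of the pluripotent state, was 0.46, 0.49, −0.15 and 0.50 in the KE + EpEX clones and 0.04, 0.01, −0.14 and −0.15 in the OSKM clones. So 3 of 4 KE + EpEX clones lay above all OSKM clones and the remaining one, clone 3, was level with the lowest (difference 0.39, 95% interval 0.06 to 0.71, adjusted p = 0.325). Sall4, a zinc finger factor that works with Oct4, differed by −0.07 (adjusted p = 0.817), and Dppa5a, an RNA-binding protein of early embryos, by 0.08 (adjusted p = 0.716). Tdgf1, a co-receptor for Nodal, differed by −0.19 (adjusted p = 0.541). For Zfp42, also known as Rex1, clones 1 and 2 were at 0.43 and clones 3 and 4 at 0.05 and −0.05, against −0.13 to 0.09 in OSKM (difference 0.27, adjusted p = 0.428). Nr0b1, a nuclear receptor that binds Oct4, overlapped between the groups and was lowest in KE + EpEX clone 3 at −0.66 (difference −0.33, adjusted p = 0.454).

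Dnmt3b was the only one of these 9 whose groups did not overlap. It encodes a de novo DNA methyltransferase that is high in the epiblast and in primed pluripotent cells. Its values were 0.13, −0.29, 0.63 and −0.65 in the KE + EpEX clones and 1.14, 0.87, 0.91 and 1.00 in the OSKM clones. The difference was −1.02 (SE 0.231, 95% interval −1.54 to −0.51, adjusted p = 0.133), and a second Dnmt3b probe set differed by −1.07 (adjusted p = 0.108). The mean in mESCs was −0.51, which is below that of both groups. Dnmt3l, the catalytically inactive partner of this enzyme, was −0.52, −0.20, 1.40 and −0.64 in KE + EpEX and 1.18, 1.20, 1.33 and 1.20 in OSKM. Here clone 3 stood at the level of the OSKM clones and the other KE + EpEX clones were more than 1 log2 unit below (difference −1.22, SE 0.377, adjusted p = 0.238). Without KE + EpEX clone 3 the adjusted test was passed by both Dnmt3b and Dnmt3l. In both genes clone 3 was the KE + EpEX clone nearest to OSKM, so its omission favours a call and adds no support.

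Of 45 other pluripotency regulators 31 were measured. At an unadjusted p under 0.05, 3 were higher and 9 lower in KE + EpEX, compared with 5.62% and 6.52% of all probe sets. All 4 KE + EpEX clones lay above all OSKM clones in 3 and below in 5, compared with 3.33% of all probe sets for above and 4.01% for below. The median difference was −0.0197, with members on both sides of it. The largest difference among them was that of Dppa3, also known as Stella, a maternal factor that protects DNA methylation in the zygote and marks primordial germ cells. It was 1.82, 2.0, 0.90 and 0.94 in the KE + EpEX clones and −0.39, −0.17, −0.07 and −0.36 in the OSKM clones. That is a difference of 1.66 (SE 0.242, 95% interval 1.12 to 2.20, adjusted p = 0.0558). The mESC mean of −0.01 was close to OSKM, and the OE + EpEX mean was 0.84. Dppa3 passed the adjusted test without KE + EpEX clone 3 and without clone 4. These were its KE + EpEX clones nearest to OSKM, so each omission favours a call and adds no support. It also passed with array weights and after quantile normalization of the deposited values. Its pass without clones 1 and 2 together was in a setting chosen after seeing the data. It did not pass without clone 1, without clone 2, without any 1 OSKM clone or with all 18 arrays in the fit. Over 18 settings its difference stayed between 1.17 and 1.94, with an adjusted p from 0.00224 to 0.271.

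Nr5a2, a nuclear receptor that binds regulatory DNA of Oct4, was 0.25, 0.37, 0.05 and 0.52 in KE + EpEX and −0.09, −0.28, −0.34 and −0.38 in OSKM. It differed by 0.57 (SE 0.114, adjusted p = 0.108), and both groups were below the mESC mean of 1.74. Lower in every KE + EpEX clone was L1td1, an RNA-binding protein of pluripotent cells, with −0.32, −0.18, 0.17 and −0.03 against 0.53, 0.36, 0.38 and 0.33 (difference −0.49, SE 0.111, adjusted p = 0.136). Jarid2, a partner of the Polycomb complex PRC2, was 0.14, 0.02, 0.51 and −0.05 against 0.52 to 0.60 (difference −0.40, adjusted p = 0.226). Lin28a, which blocks the maturation of let-7 microRNAs, was −1.08, −0.76, −0.61 and −0.02 in KE + EpEX and 0.31, −0.02, 0.18 and 0.23 in OSKM. The lowest OSKM clone and the highest KE + EpEX clone were equal at this rounding, with OSKM above by less than that (difference −0.79, SE 0.194, adjusted p = 0.154). The others without overlap were named only after their values were seen, to complete the counts. They were Igfbp2, an IGF-binding protein (difference 0.13, adjusted p = 0.552), Dppa4, a DNA-binding protein of pluripotent cells (−0.35, adjusted p = 0.285), and Trim71, an RNA-binding ubiquitin ligase that let-7 represses (−0.28, adjusted p = 0.378). Tfcp2l1, a factor of naive pluripotency, was named in the same way. It was 0.80, 0.62, −0.03 and 0.56 against −0.01 to 0.13, so that only clone 3 was not above OSKM (difference 0.44, adjusted p = 0.299).

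Otx2, a homeobox factor of the epiblast and the anterior neural plate, was added after its values were seen, because single KE + EpEX clones were far apart in it. It was −2.24, −1.63, −0.14 and 0.32, with all OSKM clones between 0.14 and 0.25 (difference −1.11, adjusted p = 0.393). Clones 1 and 2 were far below OSKM and clone 4 was above all OSKM clones. Dppa3, by contrast, lay above OSKM in all 4.

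Among all probe sets with a symbol, the 4 KE + EpEX clones lay above the 4 OSKM clones in 44 (4.73%) and below them in 51 (5.48%), compared with 3.33% and 4.01% of all probe sets. In either direction these were 10.2% with a symbol and 7.34% of all probe sets. Counted by gene, there were 31 above and 39 below of 687. The strongest on the higher side after Dppa3 was Cidea, a protein of the lipid droplet, at 1.96, 2.22, 0.73 and 1.04 against −0.01, 0.01, 0.25 and 0.06 (difference 1.41, SE 0.291, adjusted p = 0.114). Naa11, a catalytic subunit of an N-terminal acetyltransferase, was 1.06, 1.10, 0.32 and 0.85 against −0.11, −0.19, −0.23 and −0.30 (difference 1.04, SE 0.159, adjusted p = 0.0597). Cidea and Dppa3 had the same order of clones, with 1 and 2 high and 3 and 4 lower, and in Naa11 clone 3 alone was lower. Kitl, the ligand of the receptor Kit, was 0.69, −0.12, −0.91 and 0.82 against −1.31 to −0.95 (difference 1.20, adjusted p = 0.189), while its second probe set overlapped between the groups and differed by 0.26.

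**Figure D2:**
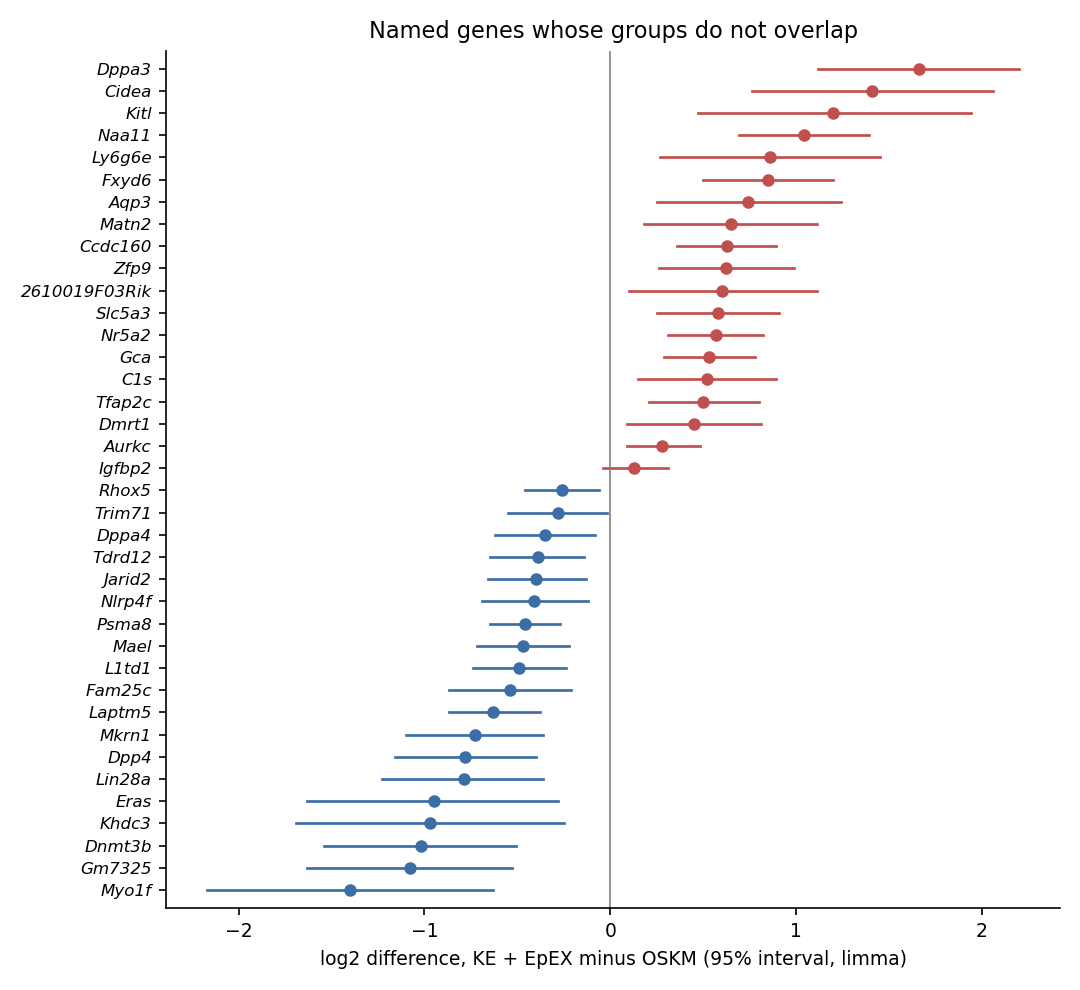
Log2 difference of KE + EpEX minus OSKM (horizontal axis) with its 95% interval for 38 named genes whose clones do not overlap between the groups, 19 higher and 19 lower in KE + EpEX. The points run from −1.40 for Myo1f to 1.66 for Dppa3, and intervals do not include the multiple testing adjustment, which none of these genes passed.

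Smaller differences without overlap followed on the higher side. Fxyd6, a regulator of the sodium pump, differed by 0.85 (adjusted p = 0.0954), Aqp3, a water and glycerol channel, by 0.74 (adjusted p = 0.22), and Slc5a3, a myo-inositol cotransporter, by 0.58 (adjusted p = 0.168). A second Slc5a3 probe set differed by 0.27, also without overlap. The Ly6 family member Ly6g6e differed by 0.86 (adjusted p = 0.238), with clone 3 at −0.18 just above the highest OSKM clone at −0.19. The matrix protein Matn2 differed by 0.65, Ccdc160 by 0.63, the zinc finger gene Zfp9 by 0.62, 2610019F03Rik by 0.60, the calcium-binding protein Gca by 0.53, and the complement protease C1s by 0.52. Gca was among the few with the KE + EpEX clones closer together (0.46 to 0.65) than the OSKM clones (−0.22 to 0.23).

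On the lower side, Myo1f, an unconventional myosin, was −0.90, −1.50, 0.03 and 0.40 in KE + EpEX and 0.95, 0.83, 0.87 and 0.99 in OSKM (difference −1.40, SE 0.346, adjusted p = 0.157). Gm7325 was −1.03, −1.16, −0.09 and −0.05 against 0.62, 0.46, 0.37 and 0.53 (difference −1.08, SE 0.246, adjusted p = 0.136). Eras, a Ras protein of embryonic stem cells that acts on PI3 kinase, was −1.41, −1.12, −0.18 and 0.16 against 0.40, 0.31, 0.22 and 0.33 (difference −0.95, adjusted p = 0.247). In these 3 genes clones 1 and 2 were the lowest, as in Otx2. Khdc3, a component of the subcortical maternal complex of the oocyte, had another order, with −0.01, −0.22, 0.61 and −1.32 against 0.70 to 0.78 (difference −0.97, adjusted p = 0.266). Dpp4, a cell surface peptidase, differed by −0.78 (adjusted p = 0.129), Mkrn1, a ubiquitin ligase, by −0.73 (adjusted p = 0.136), Laptm5, a lysosomal membrane protein, by −0.63 (adjusted p = 0.089) and Fam25c by −0.54 (adjusted p = 0.186). Some genes without overlap had a further probe set that did overlap. Such a probe set differed by 0.74 for Aqp3, by 0.54 for Matn2, by −0.64 for Dpp4 and by −0.27 and −0.30 for Jarid2.

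Germ cell and meiosis genes were mixed. Of 58 listed genes 25 were measured, all of them above MEFs. All 4 KE + EpEX clones were above OSKM in 3 and below in 4, compared with 3.33% and 4.01% of all probe sets. The median difference was −0.148, compared with −0.037 over the 469 probe sets with a symbol listed above MEFs. The 3 above were Dppa3, Dmrt1 (0.45, adjusted p = 0.3), a transcription factor of the gonad and germ cells that was named after its values were seen, and Aurkc (0.28, adjusted p = 0.238), a kinase of meiotic chromosomes. The 4 below were Khdc3, Mael (−0.47, adjusted p = 0.148) and Tdrd12 (−0.39, adjusted p = 0.212), which act in the piRNA pathway, and Nlrp4f (−0.41, adjusted p = 0.239), an NLR family gene of the oocyte. Psma8, a proteasome subunit of the testis outside this list, was −0.49, −0.46, −0.22 and −0.40 against 0.09, −0.01, 0.13 and 0.06 (difference −0.46, SE 0.0853, adjusted p = 0.0973). It was lower in all 4 KE + EpEX clones, with an SD of 0.12 in KE + EpEX and 0.06 in OSKM.

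Epithelial genes were measured in 9 of 46, with a median difference of 0.0285. At an unadjusted p under 0.05, 1 (Dsp) was higher and 1 lower, compared with 5.62% and 6.52% of all probe sets. Cdh1, or E-cadherin, the adhesion protein of epithelial junctions, was 0.19, 0.19, 0.10 and −0.42 against −0.19 to 0.01 and differed by 0.10 (95% interval −0.21 to 0.41, adjusted p = 0.842). Dsp, the desmosomal plaque protein desmoplakin, overlapped between the groups and was highest in clones 3 and 4, with −0.43, 0.02, 0.75 and 1.26 against −0.68 to −0.25 (difference 0.90, adjusted p = 0.279). Its partner Pkp2, which was past neither threshold, differed by −0.37 (adjusted p = 0.575).

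The spread between clones was wider in KE + EpEX. The distance of a clone from the mean of the other 3 clones of its group, as the root mean square over all probe sets, was 0.320, 0.222, 0.336 and 0.376 log2 units for KE + EpEX clones 1 to 4 and 0.182, 0.150, 0.162 and 0.180 for OSKM clones 1 to 4. Every KE + EpEX clone was further from its group than every OSKM clone. The means were 0.313 ± 0.0653 and 0.168 ± 0.0154 (SD, n = 4 each), a difference of 0.145 with a two-sided exact permutation p = 0.0286, the smallest that 70 splits allow. The 4 values of a group share clones and are not fully independent. The exact permutation p was 0.0571 without any 1 of OSKM clones 1 to 4 and 0.0286 without any 1 of KE + EpEX clones 1 to 4. With 1 clone left out there are 35 splits, and the smallest p possible is 0.0286.

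**Figure D3:**
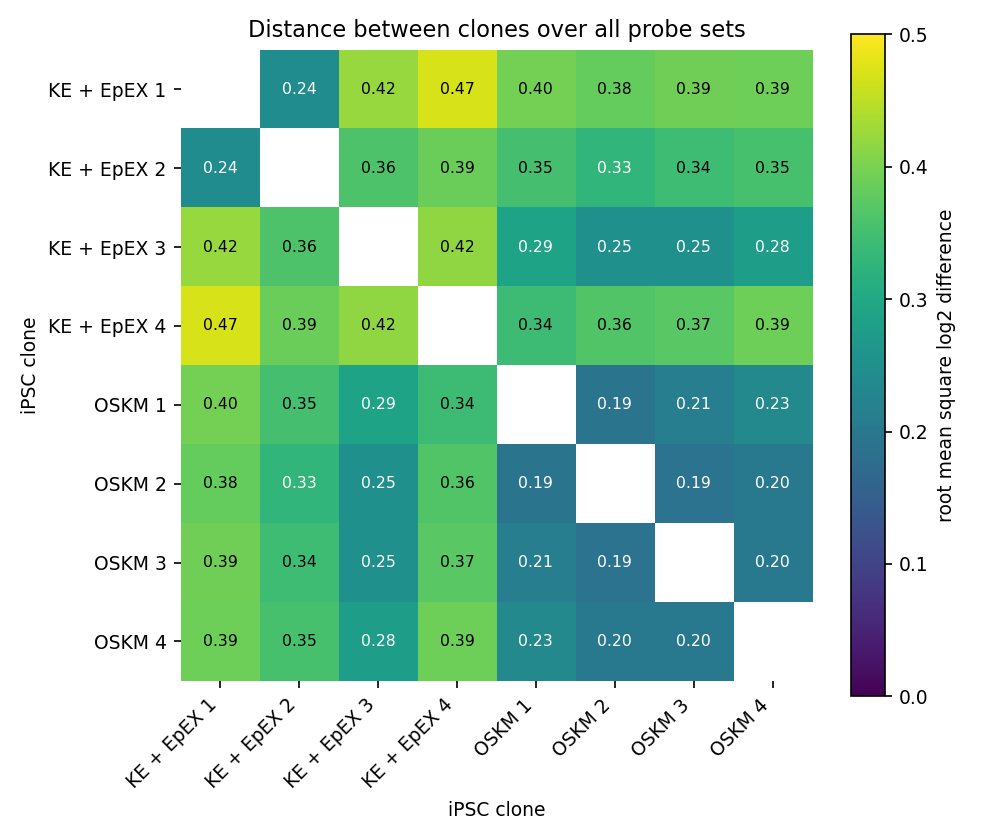
Root mean square log2 difference over 45037 probe sets for each pair of the 8 arrays, as a square matrix with the KE + EpEX and OSKM clones on both axes, coloured from 0 to 0.5 and with the value written in each cell. Pairs within KE + EpEX run from 0.243 to 0.470 and overlap the pairs between the groups (0.250 to 0.395), whereas pairs within OSKM run from 0.191 to 0.235.

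Pairs of KE + EpEX clones had a median difference of 0.403 (6 pairs), compared with 0.353 between a KE + EpEX and an OSKM clone (16 pairs) and 0.202 between OSKM clones (6 pairs). Whether pairs within KE + EpEX or pairs between the groups were further apart depended on the measure, since 1 minus Pearson's r had a median of 1.05 within KE + EpEX and 1.10 between the groups. KE + EpEX clones 1 and 2 were the closest pair of their group at 0.243. Clone 3 was nearest to the OSKM mean at 0.237, and clones 1, 2 and 4 were at 0.368, 0.321 and 0.346. A level at least 1 log2 unit from the mean of the other 3 clones was found for 618 probe sets in clone 1 (500 higher), 153 in clone 2 (108 higher), 786 in clone 3 (307 higher) and 1082 in clone 4 (544 higher). For the OSKM clones the counts were 10, 0, 0 and 5.

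By probe set, the SD over clones had a median of 0.168 in KE + EpEX and 0.115 in OSKM and was larger in KE + EpEX for 31473 (69.9%). It reached 1 log2 unit in 352 probe sets in KE + EpEX (0.782%) and in 0 in OSKM. It reached 0.5 in 2372 and 35. Among the 687 genes 625 had the larger SD in KE + EpEX. In 222 of the 352 probe sets (63.1%) the MEF mean was at least 1 log2 unit above the OSKM mean, compared with 12.3% of all probe sets, and in 91 (25.9%) it was at least 1 below, compared with 13.0%. Clone 1 had the highest level of the 4 KE + EpEX clones in 237 of the 352, compared with 11566 of all 45037 probe sets. Clones 3 and 4 had the lowest in 150 and 159 of the 352, compared with 11291 and 14711 of all 45037.

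**Figure D4:**
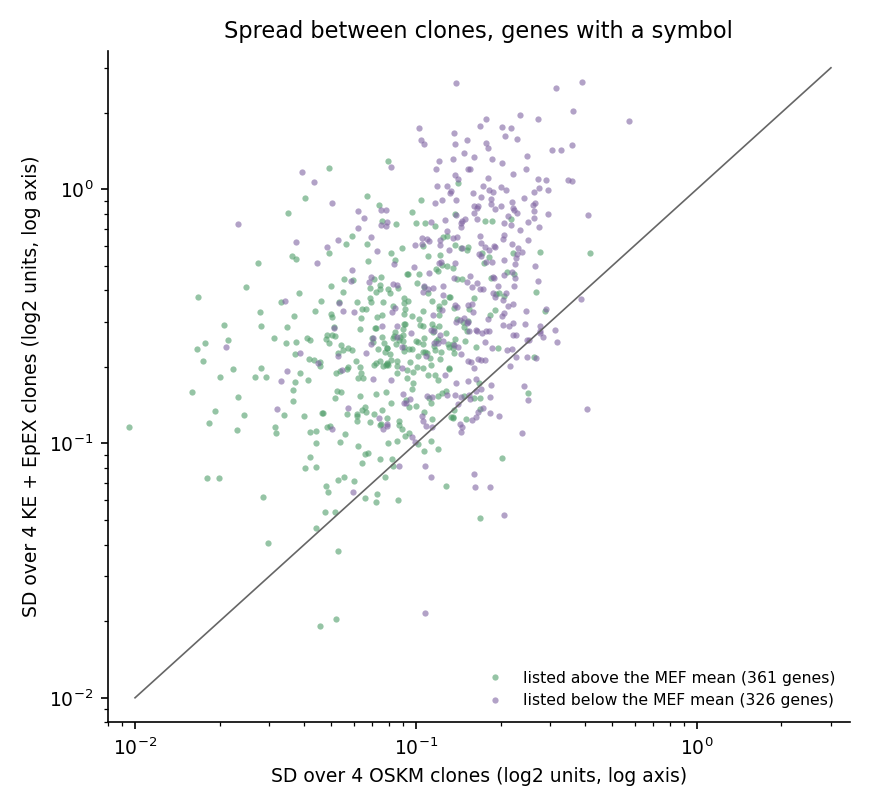
SD over the 4 KE + EpEX clones (vertical) against SD over the 4 OSKM clones (horizontal), in log2 units on log axes, for 361 genes listed above and 326 listed below the MEF mean, with a line of equal SD. Most points (625 of 687) lie above the line, and the highest, Cdh11 at 2.65 and Ogn at 2.62, are genes below MEFs.

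The genes with the largest SD over KE + EpEX clones were those of fibroblasts and their matrix. Ogn, a small leucine-rich proteoglycan also called mimecan, was 3.93, 3.06, −1.20 and −0.77 in KE + EpEX clones 1 to 4 and −0.53, −0.61, −0.85 and −0.66 in the OSKM clones, below a MEF mean of 7.97. At this probe set clones 1 and 2 were far above OSKM, clone 3 was below it and clone 4 was within its range. The mean difference of 1.92 had a 95% interval of −0.38 to 4.22 (adjusted p = 0.506), with SDs of 2.62 and 0.14. A second Ogn probe set was 2.90, 2.12, −0.12 and −0.22 against −0.80 to −0.17 (difference 1.58, adjusted p = 0.354), so there clone 3 was just above the OSKM clones. Cdh11, a cadherin of mesenchymal cells, was 2.70, 1.55, −2.36 and −2.42 against 0.04, −0.62, −0.11 and −0.76, with SDs of 2.65 and 0.39 and a difference of 0.23 (adjusted p = 0.964). The heparin-binding growth factor Ptn was 3.22, 2.16, −1.70 and −1.44 against −1.47 to −0.72 (difference 1.69, adjusted p = 0.551), and its second probe set differed by 0.85. In all 3 genes the KE + EpEX mean fell between the clones 1 and 2 and the clones 3 and 4.

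**Figure D5:**
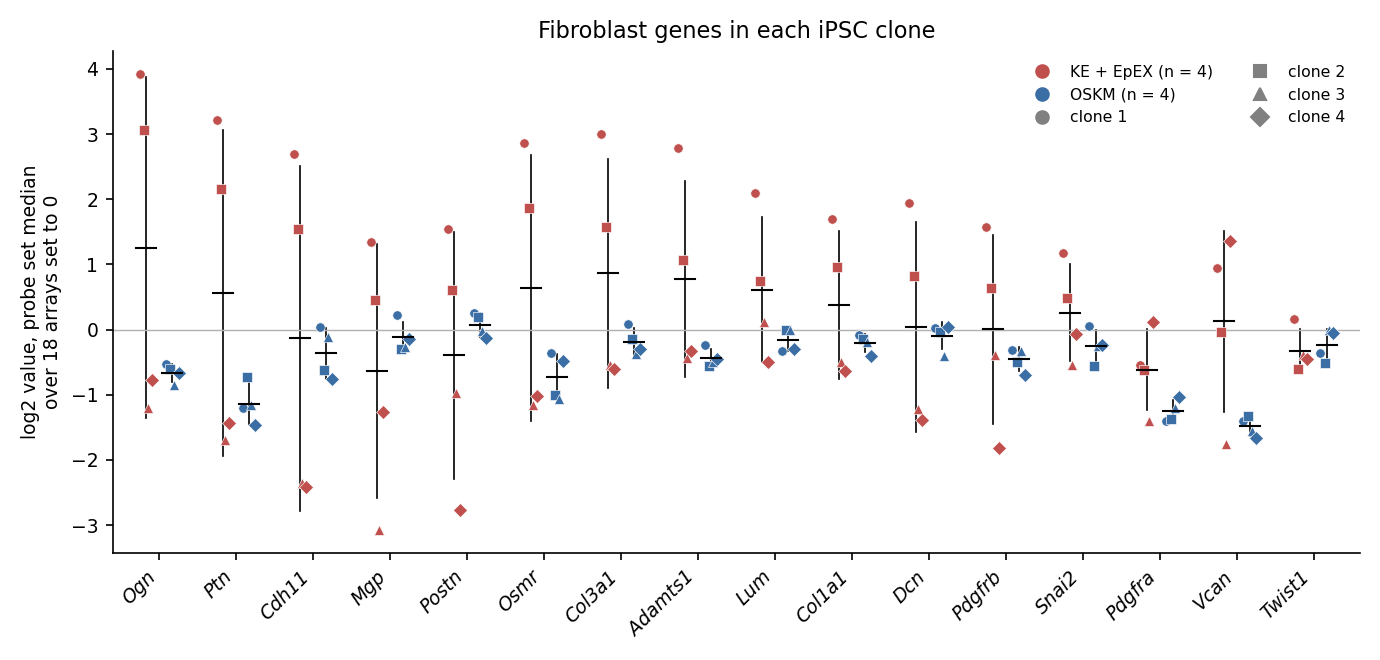
Log2 level of fibroblast genes (vertical axis, relative to the median of the 18 arrays) in KE + EpEX and OSKM clones, with clones 1 to 4 as a circle, a square, a triangle and a diamond, the mean as a black bar and the SD as a line. For Cdh11 clones 1 and 2 lie above and clones 3 and 4 below all OSKM clones, with an SD of 2.65 in KE + EpEX and 0.39 in OSKM.

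The matrix genes as a list had a like order of clone medians. Of 115 listed 42 were measured, all below MEFs, with clone medians of 1.04, 0.43, −0.44 and −0.33 in KE + EpEX and −0.15 to −0.06 in OSKM. KE + EpEX clone 1 was the highest of the 8 arrays for 35 of the 42, and clones 3 and 4 were the lowest for 15 and 20. The SD was larger in KE + EpEX for 41. By group mean the list differed by a median of 0.235, and 2 members (Matn2 and Vcan) were higher and 0 lower at an unadjusted p under 0.05, compared with 5.62% and 6.52% of all probe sets. The 462 probe sets with a symbol listed below MEFs had a median of 0.189, with 46 higher and 7 lower by that measure, so such a shift was not particular to matrix genes. Col1a1 and Col3a1, the fibrillar collagens of connective tissue, were 1.70, 0.96, −0.49 and −0.64 and 3.01, 1.58, −0.54 and −0.60 in KE + EpEX, with OSKM clones between −0.40 and −0.08 and between −0.38 and 0.09. The proteoglycans of collagen fibrils Lum (2.09, 0.75, 0.12 and −0.50) and Dcn (1.94, 0.83, −1.22 and −1.38) and the protease Adamts1 (2.79, 1.07, −0.43 and −0.33) had clone 1 highest and clone 2 next. So did Mgp, an inhibitor of calcification (1.34, 0.46, −3.07 and −1.27), and Postn, a matricellular protein (1.55, 0.61, −0.97 and −2.77).

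Clone 1 was not the highest for the other 7. One of these was Vcan, the large proteoglycan versican, at 0.95, −0.03, −1.76 and 1.36 in KE + EpEX and −1.40, −1.33, −1.55 and −1.66 in OSKM, so clones 1, 2 and 4 were above all OSKM clones and clone 3 was below them (difference 1.61, SE 0.551, adjusted p = 0.278). The other Vcan probe sets had the same clones above and below and differed by 0.88 and 0.81. Without KE + EpEX clones 1 and 2 the difference was −0.44 for Ptn, −0.39 for Col3a1 and −0.36 for Col1a1. These clones were left out because their fibroblast markers were high, so lower values of such genes follow from the choice and are given without a test.

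Among the 462 probe sets listed below MEFs, 383 were above all OSKM clones in KE + EpEX clone 1 and 272 in clone 2. In clones 3 and 4, 59 and 106 were above and 209 and 165 were below all OSKM clones. In OE + EpEX clones 1 to 4, 232, 164, 198 and 347 were above and 54, 80, 81 and 41 were below. The share of all probe sets outside the OSKM range was not counted for single clones, so no conclusion is drawn from these counts. Mesenchymal transcription factors were measured in 24 of 104, with clone 1 highest for 16. Their median difference was 0.222, compared with 0.189 over the 462 probe sets. At an unadjusted p under 0.05, 2 were higher and 0 lower in KE + EpEX, compared with 5.62% and 6.52% of all probe sets. These were Nr2f2, a nuclear receptor of mesenchyme (0.29, 0.23, −0.02 and −0.31 against −0.49 to −0.10, difference 0.37, adjusted p = 0.346), and the co-repressor Runx1t1 (0.93, 0.12, −0.36 and 0.72 against −0.52 to −0.02, difference 0.59, adjusted p = 0.393, with 0.23 and 0.35 at its other probe sets). Snai2, a repressor of E-cadherin, was 1.18, 0.48, −0.55 and −0.06 against −0.56 to 0.05 (difference 0.51, adjusted p = 0.575). Twist1, another factor of the mesenchymal state, was 0.16, −0.60, −0.39 and −0.45 and differed by −0.09 (adjusted p = 0.902). Of 74 contractile and cytoskeletal genes 1 was measured, Marcks, an actin-binding substrate of protein kinase C. It was 0.24, −0.02, −0.57 and 0.02 against −1.01 to −0.56 (difference 0.77, SE 0.172, adjusted p = 0.133), lowest in clone 3 as in Vcan.

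Receptor kinases and the STAT3 and HIF pathways, through which the study proposed EpEX to act, were measured in 7 of 59. The paper's evidence was STAT3 phosphorylation, HIF2α protein in the nucleus, and inhibition of STAT3 and HIF2α. RNA levels in established clones do not test that proposal, and the members of this list named here are receptors. The median difference was 0.46, compared with 0.189 over the 462 probe sets with a symbol listed below MEFs. At an unadjusted p under 0.05, 2 (Kit and Pdgfra) were higher and 0 lower, compared with 5.62% and 6.52% of all probe sets. Osmr, the oncostatin M receptor that signals through STAT3, was 2.86, 1.87, −1.16 and −1.02 against −1.07 to −0.36 (difference 1.37, adjusted p = 0.561). Pdgfra, a PDGF receptor, was −0.55, −0.62, −1.40 and 0.11 against −1.40 to −1.03 (difference 0.64, adjusted p = 0.361), and Pdgfrb was 1.58, 0.64, −0.39 and −1.81 against −0.70 to −0.31 (difference 0.46, adjusted p = 0.823). Kit, the receptor for the Kitl ligand and the 1 member above MEFs, was 0.19, 0.20, −0.12 and 0.70 against −0.23 to −0.04 (difference 0.39, adjusted p = 0.35). Osmr and Pdgfrb had clones 1 and 2 highest, like the matrix genes. Secreted signals were measured in 30 of 87, with clone 1 highest for 23. Their median difference was 0.175, compared with 0.189 over the 462 probe sets with a symbol listed below MEFs. At an unadjusted p under 0.05, C1s, Dkk3 and Gas1 were higher and Il1rl1 was lower, that is 3 and 1 of 30, compared with 5.62% and 6.52% of all probe sets. Dkk3, a member of the Dickkopf family, was 0.97, 0.69, −0.34 and −0.15 against −0.66 to −0.17 (difference 0.69, adjusted p = 0.349, and 0.37 at a second probe set). Gas1, a Hedgehog co-receptor, differed by 0.66 (adjusted p = 0.338, and 0.26 at a second probe set) and Il1rl1, the receptor of IL-33, by −0.51 (adjusted p = 0.369).

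Imprinted genes were measured in 4 of 35 and differed by −0.09 to 0.13, with 0 past an unadjusted p of 0.05. Beside Dcn these were the Notch ligand homologue Dlk1 (−0.05), the placental growth regulator Phlda2 (0.07) and the amino acid transporter Slc38a4 (−0.09). Markers of germ layers and trophoblast were measured in 3 of 45, namely Pdgfra, Tfap2c and Rhox5. Tfap2c, an AP-2 factor of trophoblast and germ cells, was above OSKM in all KE + EpEX clones (0.39, 0.39, 0.09 and 0.71 against −0.32 to 0.01, difference 0.50, adjusted p = 0.178). Its other probe sets differed by 0.37 and 0.26. Rhox5, an X-linked homeobox gene, was below OSKM in all KE + EpEX clones (−0.05, 0.01, 0.11 and −0.27 against 0.19 to 0.22, difference −0.26, adjusted p = 0.288). The Y-linked genes divided the KE + EpEX clones in the same pairs as the matrix genes, by a smaller amount. Ddx3y, an RNA helicase, was −0.15 and −0.02 in clones 1 and 2 and 0.49 and 0.54 in clones 3 and 4, and Eif2s3y, a translation initiation factor, was −0.36, −0.29, 0.37 and 0.34. The OSKM clones lay between −0.02 and 0.24 and between 0.02 and 0.14, and the MEF means were −4.30 and −4.83. Xist, the RNA of X inactivation, was 0.24 and 0.35 in clones 1 and 2 and −0.13 and −0.36 in clones 3 and 4, against −0.08 to 0.06 in OSKM and a MEF mean of 5.71. Other probe sets of these genes followed the pairs less closely, since a second one of Ddx3y had clone 3 at 0.19 within the OSKM range and one of Xist had all KE + EpEX clones between −0.18 and 0.02. The part of these markers in the results was not tested.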

How the data were processed

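RNA was measured with 1 Affymetrix mouse expression array for each of 18 samples. For extraction and labelling, the labels give Trizol and biotin, and the paper gives an RNeasy kit and Cy3. Per the paper, the authors used GeneSpring GX. They deposited log2 values centred per probe set over the 18 arrays (the medians were within 5e-07 of 0). They also deposited lists with a fold (linear ratio) against the mean of the 3 MEF arrays, of which only the gene symbols were used. The submitters' processing notes list MAS5 and RMA with no version or role, and the normalization between arrays is not given in the sources used here. Signal over background is therefore unknown, so dim probe sets could not be filtered. The number of arrays limits the precision.

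After 64 control probe sets of 45101 were left out, limma 3.58.1 in R 4.3.3 was run on the 8 arrays alone (lmFit, then eBayes, 1 mean per group). P-values were adjusted by Benjamini-Hochberg over 45037 probe sets, with a threshold of 0.05. On simulated data of this size, 92% of 100 probe sets changed by 1 log2 unit and 99% of 100 changed by 2 were recovered, with 10 false calls. The simulation gave both groups the same SD at a probe set, whereas in the data the SD was mostly larger in KE + EpEX. In the data, 14 genes were at least 1 log2 unit higher and 7 lower, and 0 passed. Recovery in the data is therefore not known from the simulation. A gene is given by its probe set furthest from the MEF mean. Members and lists were chosen with earlier results of these data known. Genes named were those of the study's pluripotency list, up to 6 members of each list with the lowest p, the 12 genes in each direction with the largest differences and no overlap, the genes with the largest SD over clones and those with the lowest p overall. Not every gene that these rules select is reported here. Of the probe sets without a symbol, 2 per direction are printed. Lists were described by counts and medians, without a list test. The alternatives were all 18 arrays in the fit, quantile normalization (of the deposited values or of values relative to MEFs), array medians at 0, trend and robust eBayes, array weights, a filter on SD over arrays, other thresholds, the methods' t-test, a replicate block and leaving out single clones. Leaving out KE + EpEX clones 1 and 2 together was added after seeing the data. Other steps used scipy 1.17.1, numpy 2.4.6 and pandas 2.3.3 under Python 3.11.15, and matplotlib 3.10.9 drew the figures.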

Additional observations from a re-analysis of the deposited data

Results flagged for a closer look

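In 166 groups of 4 clones, each of 1 named gene or probe set in 1 group, 10 held a clone far from the other 3 by Dixon's criterion, where chance gives about 1 in 20 groups, or 8.3. In KE + EpEX these were clone 2 for Igfbp2 (0.27, high), clone 3 for Nanog (−0.15, low) and Nr0b1 (−0.66, low), and clone 4 for Sox2 (0.48, high) and Cdh1 (−0.42, low). In OSKM they were clone 1 for Slc5a3 (−0.59, high) and Zfp42 (0.09, high), clone 2 for Ly6g6e (−0.32, low), and clone 3 for Dcn (−0.40, low) and Dnmt3l (1.33, high). None of these values was tested further.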

How the results depend on the processing

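The count of 28 probe sets depended on the setting. It was 0 with all 18 arrays in the fit and at an adjusted p under 0.01, 346 after quantile normalization of the deposited values, 57 after quantile normalization relative to MEFs, 7 with trend and robust eBayes, 3331 with array weights and 5468 without adjustment. The methods' t-test gave 2 after adjustment and 4979 without. With 1 clone left out it ranged from 0 to 2009. The 13 that reached 1 log2 unit became 0 with all 18 arrays, 106 and 21 after the quantile normalizations, 6 with trend and robust eBayes, 318 with array weights, 0 by the methods' t-test, 28 at 1.5-fold and 0 to 290 with 1 clone left out. Probe sets with a symbol, 0 in the report, were 17 and 2 after quantile normalization, 149 with array weights and 0 to 92 with 1 clone left out, and list members called ranged from 0 to 23. Without KE + EpEX clones 1 and 2, 24 reached 1 log2 unit, 5 had a symbol and 3 were list members. The cause of the higher counts was not tested. Of the 82 named genes, many of them chosen for their values in these arrays, 47 passed with array weights, compared with 149 of 931 probe sets with a symbol. The weights were lowest for KE + EpEX clones 3 and 4 (0.426 and 0.331).

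With the replicate number as a block, 0 probe sets passed and 0 reached 1 log2 unit. The numbers did not pair the samples (correlations of deviations −0.0523, 0.0781, 0.141 and −0.125), and KE + EpEX clones 2 and 3 but not 1 and 4 correlated best with their own number.

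Most genes kept their direction in every setting run. Reversed with array weights were Ddx3y (−0.09), Dlk1 (0.03), Sox2 (−0.02), Postn (0.24) and Mgp (0.23), and relative to MEFs Xist (−0.22). Without KE + EpEX clones 1 and 2, which were left out for high fibroblast markers, so that a fall of such genes follows from the choice, the differences were −0.32 for Ogn, −0.44 for Ptn, −0.36 for Osmr, −0.39 for Col3a1, −0.03 for Lum, −0.36 for Col1a1, −0.05 for Snai2, −0.64 for Pdgfrb, −2.03 for Cdh11, −1.21 for Dcn, −0.08 for Cdh1, −0.03 for Epcam, −0.24 for Xist and 0.28 for Eif2s3y. With 1 clone left out, the range included 0 for Pdgfrb (−0.07 to 1.07), Cdh11 (−0.72 to 0.99), Dcn (−0.50 to 0.60), Ddx3y (−0.04 to 0.19), Sox2 (−0.08 to 0.10), Epcam (−0.04 to 0.17), Xist (−0.08 to 0.16), Eif2s3y (−0.17 to 0.07), Twist1 (−0.25 to 0.00363), Postn (−1.12 to 0.32), Mgp (−1.17 to 0.30), Dlk1 (−0.13 to 0.04), Phlda2 (−0.12 to 0.23) and Slc38a4 (−0.21 to 0.02).

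Clone distance was larger in KE + EpEX in each setting run, by 0.125 to 0.21 with 1 clone left out. The exact permutation p was 0.0571 when any 1 OSKM clone was left out and 0.0286 when any 1 KE + EpEX clone was. As 1 minus Pearson's r, which depends on the centring of the values, array pairs differed by a median of 1.05 within KE + EpEX, 0.475 within OSKM and 1.10 between the groups. Over the probe sets with the larger SD, the root mean square was 0.519 within KE + EpEX and 0.450 between the groups. Centred values and 4 clones per group limit what can be detected.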
